A study of Mus musculus with 16 samples.

Results

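The genes described are Cartpt, Pomc, Mc3r and Mc4r, which encode the precursor of the CART peptides, proopiomelanocortin and the melanocortin receptors MC3R and MC4R. They were chosen by symbol and are 4 of the 45706 genes in the count table. Each gene was found once in the table (ENSMUSG00000021647, ENSMUSG00000020660, ENSMUSG00000038537 and ENSMUSG00000047259, in the same order). Cartpt lies at chr13:99898483-99910179, Pomc at chr12:3954945-3960643, Mc3r at chr2:172248492-172251114 and Mc4r at chr18:66857705-66860487 (RefSeq, GRCm38.p6), and no other RefSeq gene overlaps any of them.

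Proopiomelanocortin is cut by prohormone convertases into melanocortin peptides, among them alpha-MSH, which activates MC4R and MC3R. AgRP opposes this action at both receptors, and the balance between these ligands in the hypothalamus governs feeding and energy expenditure. CART peptides reduce feeding when given into the brain ventricles of rodents, and in rodents Cartpt is expressed in arcuate POMC neurons as well as in other hypothalamic cells, including neurons of the lateral hypothalamus that make melanin-concentrating hormone. Leptin acts through the receptor encoded by Lepr, and arcuate Pomc and Cartpt are known to depend on leptin.

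RNA was sequenced from mouse hypothalamus by bacTRAP, in which ribosomes that carry the L10a protein fused to GFP are pulled down with anti-GFP antibodies. The ROSA-STOP-L10a construct made the tag depend on Cre, which was expressed in Pnoc cells (Pnoc encodes prepronociceptin, the precursor of nociceptin), so every group carried it. There were 4 groups of 4 libraries: input (hypothalamic lysate) and pulldown of control pools 1 to 4, labelled Control (Lepr-flox), and input and pulldown of pools 5 to 8, labelled Pnoc Lepr deletion. Each pool joined 4 animals on a C57Bl/6N background, on chow and random fed, aged 12 weeks by the treatment protocol and 10 to 12 weeks by the extraction protocol. Variation between single animals within a pool is not measured. The sex of the animals was not given in the labels used here, and the summed level of 4 Y-linked genes ranged from 40.0 to 83.6 CPM, counts scaled to a common library size, in control pulldown and from 67.0 to 155 CPM in pulldown labelled Lepr deletion.

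The libraries held 64435952 to 78623636 estimated counts. Lepr itself stood at 1.86, 1.42, 1.65 and 1.55 CPM in control pulldown and at 2.43, 2.54, 2.82 and 2.68 CPM in the pulldown libraries labelled Lepr deletion, so on this scale the gene total was higher under that label, not lower. In TPM the groups overlapped, at 0.891 to 1.81 in control pulldown and 1.39 to 1.71 under the deletion label, and limma on log2(TPM + 1) gave 0.21 for Lepr (adjusted p = 0.467). In CPM the difference was 0.71 on the log2 scale (adjusted p = 0.0386, edgeR's quasi-likelihood test, Benjamini-Hochberg adjusted over all genes), and it missed the threshold when pool 2, 3, 4, 6, 7 or 8 was left out, with adjusted p up to 0.184. It passed in 10 of 20 alternatives. A gene total does not show whether part of a gene was removed, so this measurement does not check the label, and the genotype is given below as labelled. Pnoc, which drives Cre, was 1.68 higher in pulldown than in input in each genotype on the log2 scale. The same comparison in CPM gave -1.42 for Lepr in controls and -1.22 under the deletion label. In limma on log2(TPM + 1) Lepr was -0.11 and -0.09 and was not called. The 5 astrocyte markers summed to 473 to 554 CPM over the input libraries and to 19.1 to 29.2 CPM over the pulldown libraries. The number of genes called between genotypes in pulldown depended on a few libraries: it was 108 with all of them, 556 without control pool 1, 1262 without pool 5 labelled Lepr deletion, 3363 without both, and 19 without pool 6 or pool 7. Each genotype result on a member is therefore also given without pools 1 and 5. Those pools were picked for their effect on the number of calls, so a call gained without them is not separate support.

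The 250 bases upstream of the RefSeq start are shown for Cartpt and Pomc, the peptide precursors and the members whose pulldown groups did not overlap. The Cartpt window is chr13:99900684-99900933 on the minus strand, upstream of a start inside the full extent of the gene, and the Pomc window is chr12:3954695-3954944 on the plus strand. Both are RefSeq sequence of GRCm38.p6, printed 5′ to 3′, with matches to the searched motifs in capitals.
Cartpt: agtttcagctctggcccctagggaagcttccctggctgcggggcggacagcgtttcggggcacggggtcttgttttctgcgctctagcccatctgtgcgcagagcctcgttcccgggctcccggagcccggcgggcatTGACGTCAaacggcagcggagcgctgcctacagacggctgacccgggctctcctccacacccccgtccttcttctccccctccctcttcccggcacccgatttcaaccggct
Pomc: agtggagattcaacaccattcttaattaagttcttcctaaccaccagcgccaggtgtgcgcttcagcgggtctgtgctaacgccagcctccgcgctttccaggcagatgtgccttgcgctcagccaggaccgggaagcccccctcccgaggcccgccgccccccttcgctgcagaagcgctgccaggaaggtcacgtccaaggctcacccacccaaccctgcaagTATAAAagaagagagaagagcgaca
Short motifs were searched on both strands: TTCNNNGAA, the spaced palindrome bound by STAT factors, TGACGTCA, the cAMP response element, and TATAAA, the TATA box. The Cartpt window held 1 TGACGTCA, starting 112 bases upstream of the gene start. This motif was present in 1.55% of 32841 promoter windows of the same length. The Pomc window held 1 TATAAA, starting 25 bases upstream, a motif found in 12.4% of the windows. TTCNNNGAA was found in 7.02% of the windows and was not among the letters of the Cartpt, Pomc or Mc3r window, where the Mc3r window held none of the motifs. No Mc4r window was among those searched. A match describes letters only, and no binding was measured.

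Levels were first compared between genes in TPM, in which counts are divided by transcript length and scaled to a fixed total. The order Cartpt, Pomc, Mc3r, Mc4r held in 16 of 16 libraries, and in every group the lowest library of a gene lay above the highest library of the next. In control pulldown the mean levels were 255 TPM ± 17.9 for Cartpt, 32.2 TPM ± 4.19 for Pomc, 2.60 TPM ± 0.549 for Mc3r and 1.29 TPM ± 0.244 for Mc4r (SD, n = 4). In control input they were 59.8 TPM ± 4.34, 35.4 TPM ± 6.88, 1.14 TPM ± 0.137 and 0.576 TPM ± 0.193. The peptide precursors were thus close to each other in input, where Cartpt was 1.72 times Pomc, and far apart in pulldown, where it was 8.0 times Pomc. Receptor transcripts were scarce: Mc4r rested on 31 to 153 counts per library and Mc3r on 109 to 276, against 634 to 1686 for Pomc and 1730 to 6882 for Cartpt.

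**Figure D1:**
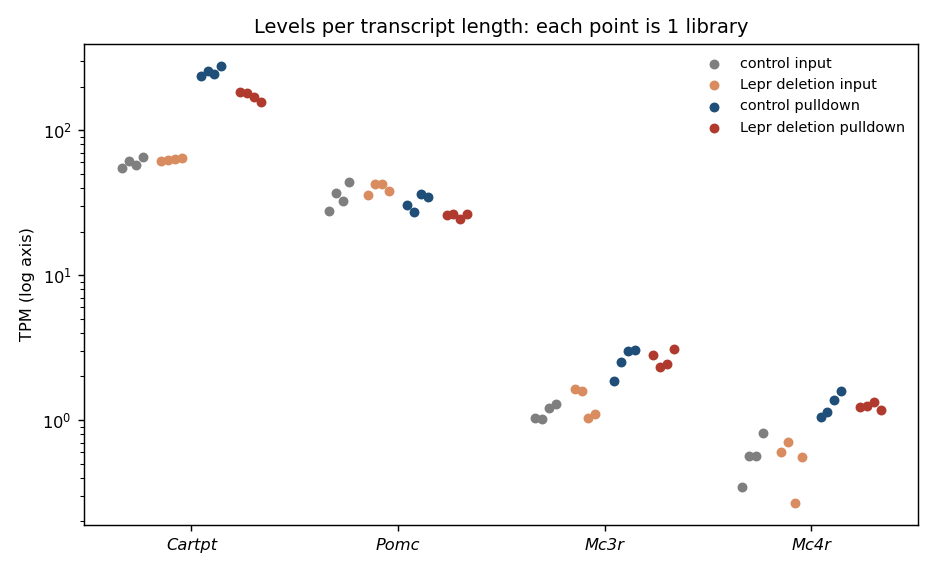
TPM of the 4 genes on a log axis, with 1 point per library and colours for the 4 groups. Cartpt lies above Pomc, Pomc above Mc3r and Mc3r above Mc4r in each of the 16 libraries, and the gap between Cartpt and Pomc is wider in pulldown than in input.

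Each gene was next followed across libraries in CPM with TMM scaling, a scale that sets libraries side by side on the bulk of their genes. All 4 genes passed the filter on low counts in every comparison.

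Cartpt was more abundant in the pulldown than in the input of every pool, and its pulldown level was lower under the deletion label. It stood at 68.2, 71.2, 68.1 and 75.7 CPM in control pulldown pools 1 to 4 and at 50.6, 50.5, 45.5 and 40.7 CPM in pulldown pools 5 to 8. The lowest control pool lay above the highest pool labelled Lepr deletion. Non-overlapping groups were found for 9.99% of the 16859 genes tested in this comparison, and for 4.92% with the lower level under the deletion label. The group means were 70.8 CPM ± 3.57 and 46.8 CPM ± 4.73 (SD, n = 4), a log2 difference of -0.59 (SE 0.0704, 95% interval -0.74 to -0.43), that is 1.50 times as much in control. The adjusted p was 0.00399 (edgeR's quasi-likelihood test, Benjamini-Hochberg over all genes), rank 13 by p. Cartpt was the 1 member of 4 called, with 0.641% of all genes called in either direction and 0.249% called lower. Without pools 1 and 5 the difference was -0.64 (adjusted p = 0.00028), and it passed the threshold in each of the 20 alternatives run, which spanned -0.64 to -0.54. In a pulldown of bulk tissue, fewer tagged cells of a kind that makes Cartpt and less Cartpt RNA per cell cannot be told apart.

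Among glial marker lists in pulldown, those of astrocytes and tanycytes leaned opposite to Cartpt between genotypes. Oligodendrocyte markers leaned less, with 4 positive, 1 negative and a median log2 difference of 0.09. Microglia markers divided into 2 positive and 2 negative, with a median of -0.06. Of the 5 astrocyte markers all were positive between genotypes in pulldown, with a median log2 difference of 0.32 against -0.01 over all genes and 0 called by edgeR's quasi-likelihood test. DESeq2 called 1 higher, and 2.25% of all genes. Their sum was 21.2, 19.1, 19.6 and 22.7 CPM in control pulldown and 21.4, 21.2, 29.2 and 28.3 CPM in pools 5 to 8, so the highest sums were in pools 7 and 8, where Cartpt was lowest. Of 4 tanycyte markers 3 were positive and 0 called, with a median of 0.39 and sums of 3.42 to 4.89 CPM against 4.39 to 6.58 CPM. Their part in the Cartpt difference was not tested.

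The input libraries showed no such gap in Cartpt. Control input held 30.3, 33.7, 32.2 and 35.7 CPM, and input labelled Lepr deletion held 32.4, 31.1, 32.9 and 32.5 CPM, with all of the latter inside the control range. The log2 difference was -0.03 (95% interval -0.16 to 0.09, adjusted p = 0.840, edgeR's quasi-likelihood test). None of the 4 members was called in input, where 0.231% of 17735 genes were. The unadjusted p was also above 0.05 for each member, and DESeq2 called none.

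Pomc, in contrast with Cartpt, was less abundant in pulldown than in input on this scale. It stood at 10.5, 9.05, 12.1 and 11.4 CPM in control pulldown and at 8.67, 8.84, 7.81 and 8.37 CPM in pulldown labelled Lepr deletion. These groups did not overlap either, although the gap between the nearest pools was narrow, and 4.92% of all genes tested separated in that direction. The means were 10.8 CPM ± 1.32 and 8.42 CPM ± 0.453, a log2 difference of -0.34 (SE 0.0925, 95% interval -0.54 to -0.14) that missed the threshold (adjusted p = 0.0964, edgeR's quasi-likelihood test). It passed in 2 of 20 alternatives, DESeq2 (-0.34, adjusted p = 0.0221) and the fit without pools 1 and 5 (-0.37, adjusted p = 0.0291), and the adjusted p ranged from 0.0221 to 0.284 over all of them. DESeq2 called 1.61% of all genes lower, and the fit without pools 1 and 5 called 10.5% lower. The authors' deposited table gives Pomc -0.34 with an adjusted p of 0.0209, and Cartpt -0.58 with an adjusted p of 3.02e-11, for the same comparison. In input, Pomc held 18.3, 24.5, 21.8 and 28.9 CPM in control and 22.5, 25.4, 26.4 and 23.4 CPM under the deletion label, with overlapping ranges and a log2 difference of 0.07 (95% interval -0.17 to 0.31, adjusted p = 0.842).

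The melanocortin receptors showed no difference between genotypes that was detectable at their depth. Mc3r, a receptor found in the arcuate nucleus and elsewhere in the hypothalamus, had 1.94, 2.57, 3.02 and 3.03 CPM in control pulldown and 2.88, 2.38, 2.41 and 2.98 CPM in pulldown labelled Lepr deletion. The log2 difference of 0.02 had a 95% interval of -0.32 to 0.36 (adjusted p = 0.953, edgeR's quasi-likelihood test). Input Mc3r stood at 2.01, 2.04, 2.41 and 2.57 CPM against 3.15, 2.86, 1.93 and 2.03 CPM, a difference of 0.14 (95% interval -0.26 to 0.54). The ranges overlapped in both fractions. Mc4r, the receptor whose loss causes obesity in mice and humans, had 1.17, 1.22, 1.47 and 1.68 CPM in control pulldown and 1.31, 1.35, 1.38 and 1.20 CPM under the deletion label. This difference was -0.07 (95% interval -0.41 to 0.27, adjusted p = 0.850). Without pools 1 and 5 the pulldown differences were -0.14 for each receptor, with adjusted p of 0.552 for Mc3r and 0.654 for Mc4r. In input, Mc4r held 0.718, 1.20, 1.20 and 1.71 CPM in control and 1.21, 1.34, 0.524 and 1.09 CPM under the deletion label, a difference of -0.21 with a wide 95% interval of -0.89 to 0.46. The lowest of these, pool 7, rested on 31 counts, for which the exact Poisson 95% interval was 0.356 to 0.744 CPM, counting error only. Without pools 1 and 5 the input differences were -0.07 for Cartpt, 0.0042 for Pomc, -0.04 for Mc3r and -0.47 for Mc4r, and none was called.

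**Figure D2:**
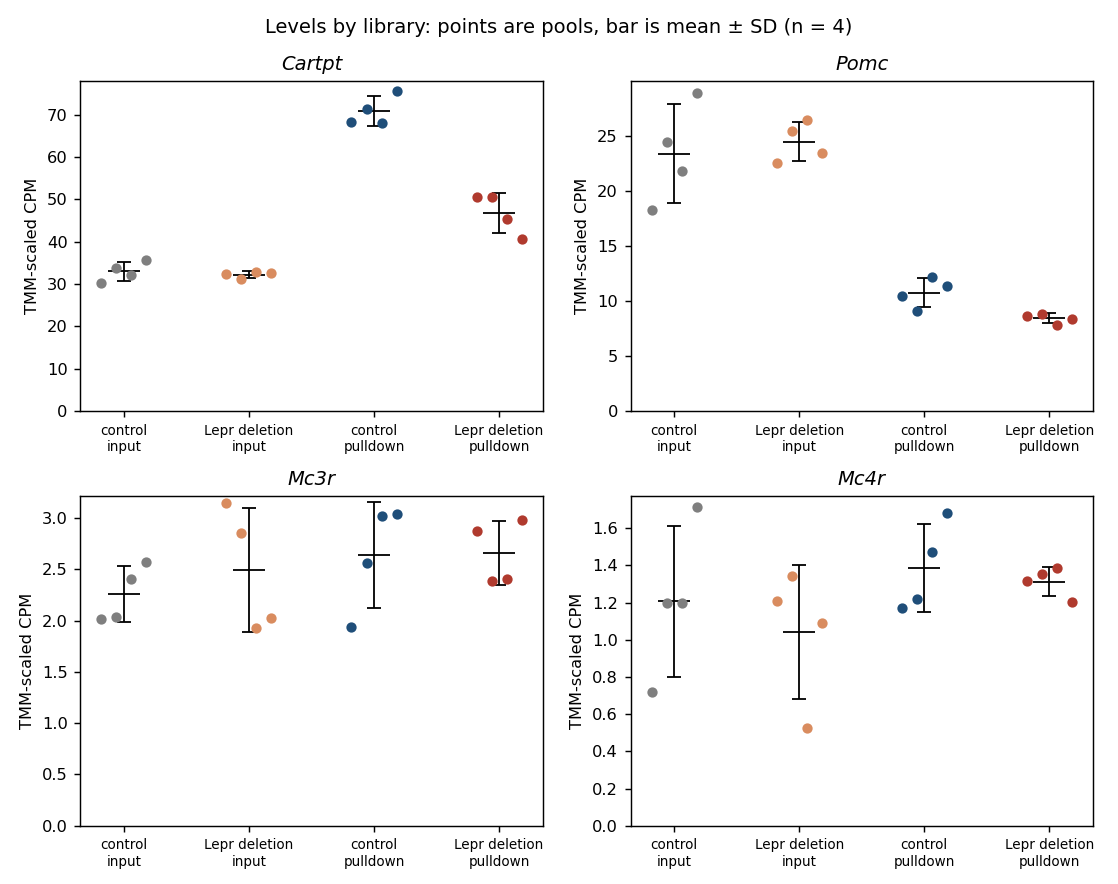
TMM-scaled CPM of each gene in the 4 groups, with 1 point per pool and the mean ± SD (n = 4). The pulldown points of Cartpt separate by genotype (68.1 to 75.7 against 40.7 to 50.6 CPM), those of Pomc separate narrowly, and those of Mc3r and Mc4r overlap.

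**Figure D3:**
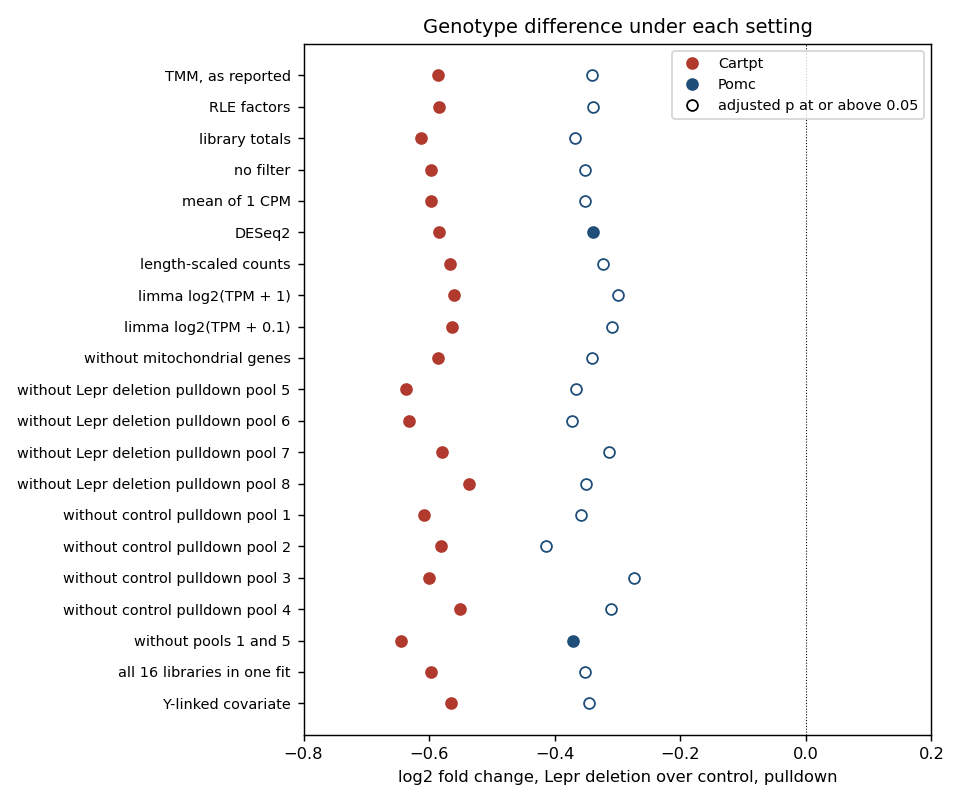
Log2 difference between pulldown labelled Lepr deletion and control pulldown for Cartpt and Pomc, as reported and under 20 alternatives; filled points have an adjusted p under 0.05. Cartpt stays between -0.64 and -0.54 and is filled throughout, and Pomc is filled for DESeq2 and without pools 1 and 5.

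Pulldown over input shows how far a transcript was represented on the ribosomes of the tagged cells relative to the whole lysate. In controls Cartpt was enriched by 1.08 on the log2 scale (SE 0.0598, adjusted p = 2.59e-08) and Pomc fell by 1.14 (SE 0.133, adjusted p = 1.47e-05), both by edgeR's quasi-likelihood test. Under the deletion label Cartpt was enriched by 0.53 (SE 0.0689, adjusted p = 1.81e-05) and Pomc fell by 1.55 (SE 0.0736, adjusted p = 8.24e-10). In each genotype 1 member was called higher and 1 lower, where 64.8% of 17570 genes were called in controls and 61.6% of 17423 under the deletion label. By direction, 30.1% of genes were called higher and 34.6% lower in controls, and 28.8% and 32.8% under the deletion label. These fits did not pair the input and pulldown of a pool. With the pool as a replicate block the shares were 33.1% and 36.2% in controls, and 30.1% and 33.3% under the deletion label. Mc3r (0.20 in controls, 0.08 under the deletion label) and Mc4r (0.18 and 0.32) were not called in either genotype, and the largest upper bound of their 95% intervals was 0.86.

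The call on Pomc in controls and the calls on the receptors depended on the scale. TMM scaling centres the pulldown-to-input differences of all genes near 0, whereas scaling by library totals shifted their median by 0.55 in controls and 0.46 under the deletion label. On library totals Mc3r (0.75 in controls, 0.54 under the deletion label) and Mc4r (0.73 and 0.78) were called higher in pulldown. On that scale 60.9% of all genes were called higher in controls and 57.4% under the deletion label. In limma on log2(TPM + 1), whose median over all genes was shifted by 0.65 and 0.60, Pomc was -0.12 in controls (adjusted p = 0.433). The pulldown level of Pomc in TPM was 1.08, 0.739, 1.12 and 0.789 times its input level in control pools 1 to 4, so as a share of all transcripts it was near the input level in some pools. In pools 5 to 8 the same TPM ratio was 0.735, 0.618, 0.567 and 0.693, below 1 in each. Cartpt was higher in pulldown on every scale tried, with TPM ratios of 4.28, 4.23, 4.26 and 4.26 in pools 1 to 4 and 3.00, 2.89, 2.66 and 2.43 in pools 5 to 8. The share of calls that were higher moved with the scale from 46.5% to 76.2% (library totals) and 83.9% (TPM) in controls, and from 46.8% to 74.4% and 83.6% under the deletion label.

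Each pool gave both an input and a pulldown library, so the enrichment can be read within a pool in TMM-scaled CPM. For Cartpt the pulldown-to-input ratio was 2.25, 2.11, 2.11 and 2.12 in control pools 1 to 4 and 1.56, 1.62, 1.38 and 1.25 in pools 5 to 8. All control pools lay above all pools labelled Lepr deletion. The share of all genes whose ratios separate in this way was not computed, so the separation is not read as particular to Cartpt. The change of enrichment between genotypes was -0.56 on the log2 scale (SE 0.0934, 95% interval -0.76 to -0.37), rank 3 by p of 18530 genes, with an adjusted p of 0.0540 (edgeR's quasi-likelihood test), just above the threshold. With the pool as a replicate block, which uses the shared lysate, it was -0.57 with an adjusted p of 0.0259. The value passed in 12 of 27 alternatives, among them the fits without pools 1 and 5 (-0.58, adjusted p = 0.0223), without pulldown pool 5 (-0.60, adjusted p = 0.0336), without pulldown pool 6 (-0.60, adjusted p = 0.0442) and without control input pool 4 (-0.61, adjusted p = 0.0337), and all 27 lay between -0.65 and -0.50. None of the 4 members was called as fitted without the block, where 0.0108% of genes were. Cartpt and Pomc were under 0.05 before adjustment, as were 8.96% of all genes, and Cartpt was called by DESeq2.

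For Pomc the pulldown-to-input ratio was 0.572, 0.370, 0.557 and 0.393 in control pools and 0.385, 0.348, 0.295 and 0.357 in pools labelled Lepr deletion. The ranges overlapped through control pool 2. The change of enrichment was -0.42 (95% interval -0.75 to -0.09, adjusted p = 0.465, edgeR's quasi-likelihood test). The Mc3r ratio ranged from 0.963 to 1.26 in control pools and from 0.833 to 1.47 in the others, and its change was -0.13 (adjusted p = 0.924). The Mc4r ratio ranged from 0.981 to 1.63 and from 1.01 to 2.64, where the highest value was that of pool 7 with its low input count, and its change was 0.13 (adjusted p = 0.946).

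**Figure D4:**
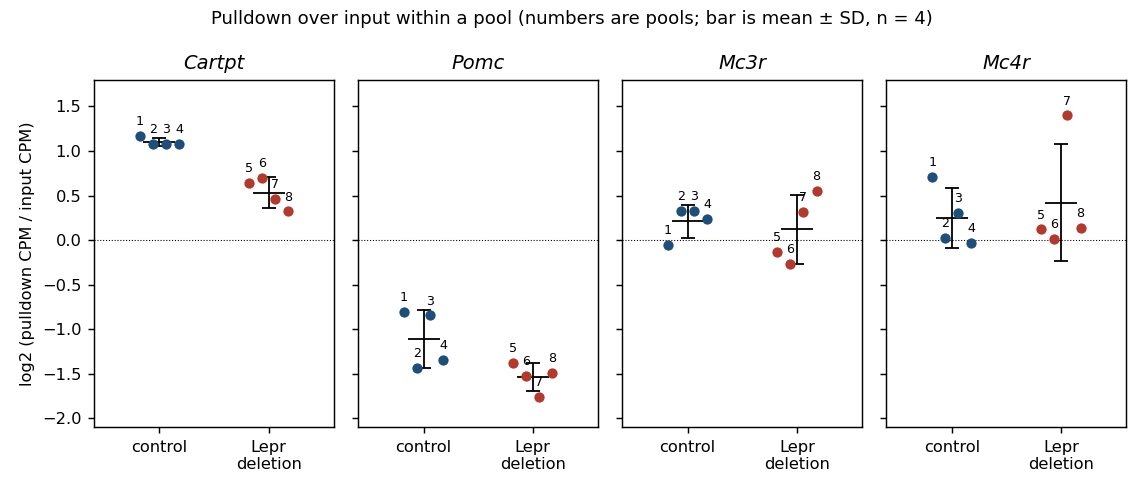
Log2 ratio of pulldown to input TMM-scaled CPM within each numbered pool, by genotype label, with the mean ± SD (n = 4). Cartpt ratios lie above 0 and separate by genotype, and Pomc ratios lie below 0 and overlap through control pool 2. Mc3r ratios lie on both sides of 0, and Mc4r ratios lie near or above 0.

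Ratios of genes within a library do not depend on how libraries are scaled to each other. In pulldown the TPM ratio of Cartpt to Pnoc was 27.5, 25.4, 21.1 and 22.2 in control pools and 16.1, 17.1, 16.7 and 17.4 in pools labelled Lepr deletion. All control values lay above the others, with a mean log2 difference of -0.51 and p = 0.0286 (two-sided exact permutation test), the smallest p that 4 against 4 allows. Pnoc itself was at 7.29, 8.26, 9.51 and 10.1 CPM against 9.30, 8.70, 8.08 and 6.97 CPM in the same libraries, which overlap (log2 difference -0.08, adjusted p = 0.761). The ratio of Cartpt to Pomc was 7.82, 9.45, 6.74 and 7.99 in control pulldown and 7.01, 6.86, 7.00 and 5.85 under the deletion label. These ranges overlap through control pool 3, and the difference of -0.25 gave p = 0.114 in the exact permutation test, so a fall of Cartpt beyond that of Pomc was not shown. Leaving out that control pool gave -0.33 with p = 0.0286 in the same exact permutation test, the smallest p that this split allows. As it was the pool through which the ranges overlapped, its removal fixed that outcome, and nothing is drawn from it. No other alternative of this ratio passed. In input neither ratio passed the exact permutation test, with p = 0.571 for Cartpt to Pnoc and p = 0.314 for Cartpt to Pomc.

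Other genes of the melanocortin and CART pathway came from lists of ligands, receptors, accessory proteins, processing enzymes, transcription factors and downstream genes. Of 40 such genes apart from the members, 34 or 35 passed the filter, depending on the comparison. Agouti (Asip) was not analysed here, and Mc1r, Mc2r, Mc5r and Mrap were below the filter. In pulldown none of 34 was called between genotypes by edgeR's quasi-likelihood test and 9 were under 0.05 before adjustment, where 19.8% of all genes tested were. DESeq2 called 2 of 38 lower, and 1.61% of all genes. Their log2 differences were negative for 27 and positive for 7, with a median of -0.12 against -0.01 over all genes tested. Without pools 1 and 5, 15 were called lower and 2 higher, in a fit that called 10.5% of all genes lower and 9.35% higher.

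All 6 accessory genes tested were negative between genotypes in pulldown, with none called by edgeR's quasi-likelihood test, none under 0.05 before adjustment and none called by DESeq2. In the fit without pools 1 and 5, 4 of the 6 were called lower, with a median of -0.27 in place of -0.09. Of the 10 processing genes, 9 were negative and 0 passed by edgeR, although 6 were under 0.05 before adjustment and 2 were called lower by DESeq2. Pam, which amidates peptides such as alpha-MSH, was -0.21 (adjusted p = 0.0976), Scg5, the chaperone of prohormone convertase PC2, was -0.27 (adjusted p = 0.111), and Pcsk2, which encodes PC2, was -0.17 (adjusted p = 0.209, all edgeR's quasi-likelihood test). Without pools 1 and 5, 8 of the 10 were called lower, against 10.5% of all genes. The input libraries went the same way: 8 of 10 were negative, 0 were called and 3 were under 0.05 before adjustment, where 14% of all genes were. In input Pam was -0.20, Scg5 -0.19, Pcsk2 -0.15 and Pcsk1 -0.35, and without pools 1 and 5, 4 of the 10 were called lower, against 6.67% of all genes. DESeq2 called none of them in input.

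The summed pan-neuronal markers ranged from 11436 to 13078 CPM in control pulldown and from 10782 to 11440 CPM under the deletion label. By gene, 4 of the 6 were negative and 2 positive, with a median of -0.03 against -0.01 over all genes and 0 called by edgeR's quasi-likelihood test or DESeq2, and 1 was called lower without pools 1 and 5. Their part in the pathway values was not tested. Between genotypes in pulldown Agrp, the antagonist, was 0.05 (adjusted p = 0.883), and Npy, which AgRP neurons also make, was 0.42 (adjusted p = 0.0671).

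Between pulldown and input, 15 of 35 pathway genes were called higher and 11 lower in controls, and the same counts were found under the deletion label. Of all genes tested, 30.1% were called higher and 34.6% lower in controls, and 28.8% and 32.8% under the deletion label. Among accessory genes 4 of 6 were higher and 0 lower: Mrap2, an accessory protein of MC4R, was enriched by 0.59 in controls and 0.52 under the deletion label, and Gnas, the stimulatory G protein subunit to which melanocortin receptors couple, by 0.45 and 0.33 (edgeR's quasi-likelihood test, adjusted p at most 0.00586). Processing genes divided into 4 higher and 4 lower of 10. Pcsk2 (0.61 and 0.59), Scg5 (0.53 and 0.45), Pam (0.47 and 0.46) and Pcsk1n (0.66 and 0.39) were higher. Cpe, carboxypeptidase E, was lower (-0.87 and -0.91) on the TMM scale. In limma on log2(TPM + 1) Cpe was 0.12 and 0.0016 and was not called in either genotype. Pcsk1, which encodes the convertase that makes the first cuts in proopiomelanocortin, was not called (-0.22 and -0.09).

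Among transcription factors, 4 of 11 were higher and 4 lower in each genotype. Over all genes the shares were 30.1% and 34.6% in controls and 28.8% and 32.8% under the deletion label. Isl1 (0.60 and 0.77) and Nkx2-1 (0.73 and 0.68), both needed for hypothalamic Pomc expression in mice, were higher. Socs3, a leptin-induced inhibitor of leptin receptor signalling, was lower (-1.10 and -1.54), with 95% intervals excluding 0 on the TMM scale and a value of -0.04 in controls in limma on log2(TPM + 1), where it was not called. Stat3, the factor that the leptin receptor activates, was -0.42 and -0.66 on the TMM scale. In limma on log2(TPM + 1) it was 0.37 and 0.16, and the latter was not called. Of the downstream genes, Trh (1.63 and 1.21), Bdnf (0.71 and 0.43) and Sim1 (0.67 and 0.71) were higher, and Oxt (-3.85 and -3.90) and Ntrk2 (-2.15 and -2.14), the BDNF receptor, were lower. Gpr160, proposed in rats as a CART receptor, was lower (-3.02 and -2.97). It was below the filter in the pulldown libraries alone and entered these fits through its input level. Its value therefore rests on pulldown counts near the floor, and over the alternatives the weakest values were -0.31 and -0.23.

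**Figure D5:**
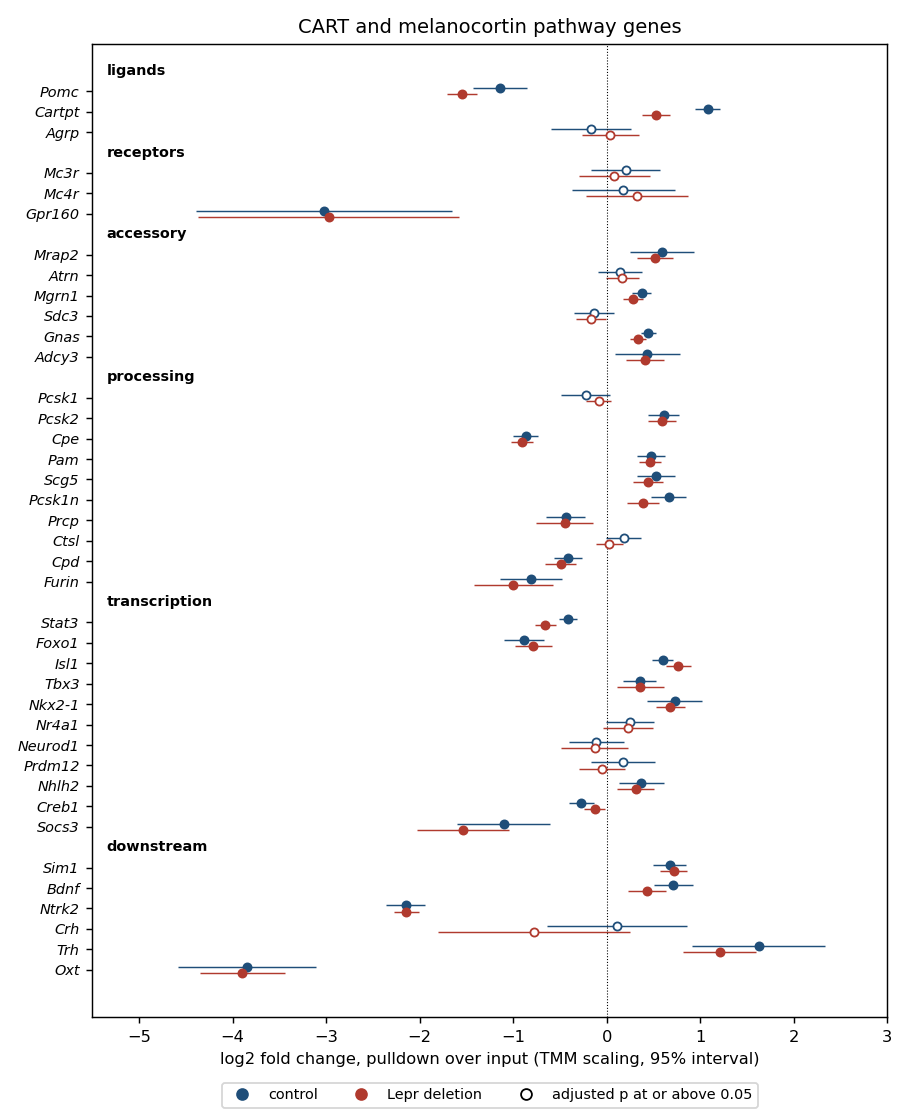
Log2 fold change of pulldown over input with its 95% interval for each pathway gene that passed the filter, with control and Lepr deletion libraries in separate colours and open points for adjusted p at or above 0.05. Cartpt lies to the right of 0 and Pomc to the left in both genotypes, Agrp lies close to 0, and the MC3R and MC4R genes straddle 0.

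Marker lists describe which other cells the libraries could hold. Of the 9 POMC neuron markers, which include Pomc and Cartpt, 3 were higher and 2 lower in pulldown in controls, and 5 and 2 under the deletion label. The shares of all genes called higher and lower were 30.1% and 34.6% in controls and 28.8% and 32.8% under the deletion label. Anxa2, a marker of some POMC neurons, fell by 2.27 and 2.56, while Glp1r rose by 1.04 and 0.79 (edgeR's quasi-likelihood test). The list summed to 188 to 244 CPM in control pulldown and 179 to 206 CPM under the deletion label. Of 4 markers of neurons making melanin-concentrating hormone, Cartpt among them, 3 and 4 were higher in pulldown, and Pmch, the hormone's precursor, was enriched by 0.75 and 0.80. Their sum was 338 to 483 CPM in control pulldown and 281 to 408 CPM under the deletion label, with overlapping ranges. All 4 were negative between genotypes in both fractions, with a median log2 difference of -0.31 in pulldown and -0.29 in input, although only Cartpt in pulldown was called by edgeR's quasi-likelihood test. Pmch was -0.22 in pulldown (adjusted p = 0.382) and -0.28 in input (adjusted p = 0.548). When pools 1 and 5 were left out, 3 of the 4 were called lower in each fraction, with Cartpt itself among them in pulldown. Those fits called 10.5% of all genes lower in pulldown and 6.67% in input. Pmch was then -0.43 in pulldown (adjusted p = 0.00372) and -0.64 in input (adjusted p = 0.00031, edgeR's quasi-likelihood test). The part of these cells in the Cartpt difference was not tested. Pituitary tissue also makes Pomc. Its markers did not move together: Cga, the shared glycoprotein hormone subunit, fell by 4.54 and 4.89 in pulldown and Tshb, the thyrotropin subunit, fell by 1.20 and 1.00, while Tbx19, a transcription factor of pituitary Pomc cells, was 0.63 higher in controls (adjusted p = 0.0127) and 0.23 under the deletion label (adjusted p = 0.325, edgeR's quasi-likelihood test). Pax7 was not called (0.28 and 0.42). Gh, growth hormone, was at most 1.42 CPM in any library. The part of pituitary RNA in the level of Pomc was not tested.

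The genes closest to each member in profile were found by the root mean square difference of centred log2 CPM over the 16 libraries, among 10249 or 10250 genes. For Cartpt they were Cyb5r1 (0.12), Tspan13 (0.13) and Tmem9 (0.14), against 0.47 for Cartpt's own departure from a flat profile. For Pomc they were Csgalnact1 (0.15), Hacd2 (0.17) and Rgma (0.17), against 0.69. The receptors varied less than the precursors: Mc3r, with a departure of 0.24, was near to Tmem208 (0.14) and P4hb (0.15), and Mc4r, with 0.41, to Pcdhga2 (0.24), Slc7a3 (0.26) and Slc9a5 (0.26). The measure takes input and pulldown libraries together.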

How the data were processed

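The authors deposited estimated counts per gene, TPM per gene, counts rescaled for gene length, and a table of their own log2 fold changes and adjusted p-values. Salmon 1.10.1, DESeq2 1.38.3 and the GRCm38 build are named in the submitters' processing notes. The sources used here give no trimming, annotation release, strand setting or design formula. Reads of overlapping antisense genes could therefore not be told apart, although no RefSeq gene overlaps a member.

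Estimated counts were rounded and tested with edgeR 4.0.16 in R 4.3.3 (quasi-likelihood, TMM scaling, filterByExpr with a minimum count of 10 and a minimum total of 15, Benjamini-Hochberg over all genes tested, threshold 0.05, two-sided). Genotypes were compared in pulldown and in input, pulldown with input in each genotype, and the change of enrichment over all 16 libraries. Ratios of TPM were tested by exact permutation over 70 assignments. Alternatives used DESeq2 1.42.0, limma 3.58.1 on log2(TPM + 1) or log2(TPM + 0.1) for genes with a mean of at least 0.1 TPM, other scalings and filters, libraries left out, a replicate block and a Y-linked covariate. The tests were checked on simulated counts.

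Input and pulldown of a pool came from the same lysate, per the labels' protocols. Their deviations from the group means correlated by 0.110 to 0.458 in 8 of 8 pools, each pool best with its own number, so the numbers pair the libraries. Replicates differed beyond sampling noise in each of 24 pairs (chi-square per degree of freedom 7.76 to 46.5).

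The members and gene lists were chosen with earlier results of these data known. Named genes are the members, Lepr, Pnoc, up to 4 passing genes of each list with the smallest p, pathway genes for their role, and the 3 nearest profiles to each member. Of these, 1 nearest profile and the summed pituitary list are not reported here.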

Additional observations from a re-analysis of the deposited data

Results flagged for a closer look

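The TPM ratio of Cartpt to Pomc in pulldown pool 8, labelled Lepr deletion, was 5.85, apart from the other pools of its group at 6.86, 7.00 and 7.01. Its gap to the nearest pool was 0.870 of the group's range, above Dixon's 95% critical value of 0.829 for 4 samples. Chance flags about 1 group in 20, and this was the 1 flagged among 24 groups of gene levels on each of 2 scales and 8 groups of ratios.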

How the results depend on the processing

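The lower Cartpt level in pulldown kept its direction and its call in 20 of 20 alternatives. Of 427 member values under alternatives, 381 kept their direction and side of the threshold, 26 newly passed, 2 no longer passed and 18 changed sign without being called in either fit. Those 18 were Mc3r in pulldown between genotypes (6, -0.14 to -0.0059), Cartpt in input (4, 0.00092 to 0.07), Mc4r in input (2, up to 0.0078), Mc4r in the change of enrichment (2, -0.10), and 1 each for Mc4r in pulldown (0.04), Mc3r in input (-0.04), Pomc in input (-0.03) and Mc3r enrichment under the deletion label (-0.02).

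The genes called between genotypes in pulldown numbered 108, and 266 with no filter, 1050 with DESeq2, 16 on length-scaled counts, 21 and 19 in limma on log2(TPM + 1) and log2(TPM + 0.1), 3363 without pools 1 and 5, 508 with all 16 libraries in one fit, 29 with the Y-linked covariate and 19 to 1262 with 1 library left out. In input they numbered 41, and 108 on library totals, 261 with no filter, 359 with DESeq2, 11 on length-scaled counts, 20 and 23 in the same limma fits, 1957 without pools 1 and 5, 245 with the Y-linked covariate and 19 to 402 with 1 library left out. The share of calls that were higher moved from 61.1% to 39.5% on library totals in pulldown and from 58.5% to 87.0% in input.

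Genes called for a change of enrichment numbered 2, and 4 with RLE factors, 4 on library totals, 6 with no filter, 28 with DESeq2, 0 on length-scaled counts, 4 and 6 in limma, 87 without pools 1 and 5, 4 with the replicate block and 1 to 5 with 1 library left out. For Cartpt the change of enrichment passed with RLE factors (-0.55), library totals (-0.65), no filter (-0.57), a mean of 1 CPM (-0.56), DESeq2 (-0.55), limma (-0.63 and -0.64), without pools 1 and 5 (-0.58) and with the replicate block (-0.57); it missed the threshold on length-scaled counts (-0.57, adjusted p = 0.183), and ranged from -0.61 to -0.50 with 1 library left out. The block changed no other call on a member.

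In pulldown Pomc passed with DESeq2 (-0.34) and without pools 1 and 5 (-0.37), fits that called 1.61% and 10.5% of all genes lower. The Cartpt to Pomc ratio ranged from -0.33 to -0.17 with 1 library left out, and Cartpt to Pnoc was -0.42 without pools 1 and 5, where 3 against 3 allows no p below 0.1. For pulldown over input in controls, Pomc was -0.12 and -0.13 in limma with pseudocounts of 1 and 0.1, Mc3r was 0.75 on library totals and 0.74 and 1.11 in limma, and Mc4r 0.73, 0.54 and 1.07. Under the deletion label Mc3r was 0.54, 0.65 and 0.96 and Mc4r 0.78, 0.56 and 1.15.

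Changes of sign in named genes where the fit as reported or the alternative was called, all for pulldown over input, came with the scale. On library totals Pcsk1 was 0.32 in controls and 0.37 under the deletion label, and Stat3 0.13 in controls. In limma with a pseudocount of 1, Agrp was 0.80, Pcsk1 0.70, Cpe 0.12 and Stat3 0.37 in controls, and Pcsk1 0.73, Cpe 0.0016 and Stat3 0.16 under the deletion label. With 0.1 they were 0.86, 0.74, 0.12 and 0.39, and 0.77, 0.0016 and 0.17. In both limma fits Cpe was not called in either genotype, and Stat3 was not called under the deletion label. For these the call was lost and no opposite direction was shown. Apart from the scale, the cause of these changes was not tested. Depth limits the receptors, above all Mc4r with 31 to 153 counts per library, for which only differences outside the intervals given could be seen.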
